A study of Mus musculus with 4 samples.

Results

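The 8 genes described here are the forkhead factor genes Foxo1 and Foxo3, the Krüppel-like factor genes Klf2 and Klf3, the sphingosine 1-phosphate receptor genes S1pr1, S1pr4 and S1pr5, and the chemokine receptor gene Ccr7. They were taken by symbol from a table of 24062 genes, all 8 were found, and all 8 were among the 11271 genes tested. S1pr5 met the minimum for testing through the SPF libraries alone, so it entered the test only because its reads were higher there. The cells were gBT-I cells, CD8+ T cells whose transgenic receptor recognises a glycoprotein B peptide from herpes simplex virus. Splenocytes of SPF (specific pathogen free) gBT-I transgenic donors were cultured with that peptide plus LPS, received IL-1 (as the labels spell it) on days 2 and 3, and were injected into recipient veins on day 4. The first group of recipients was GF (germ free) C57BL/6 mice (2 libraries) and the second was SPF C57BL/6 mice (2 libraries), and gBT-I cells were sorted from the spleen 7 days after transfer. Donor, stimulation and sort were the same for both groups, so the recipient was the labelled difference.

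As background, FOXO factors sit in the nucleus of resting T cells and are phosphorylated and exported when the kinase AKT is active. In the nucleus FOXO1 promotes expression of KLF2, and KLF2 promotes expression of the receptor S1PR1, through which lymphocytes leave lymphoid organs toward the sphingosine 1-phosphate of blood and lymph. CCR7 helps bring naive and central memory T cells into lymph nodes, and effector CD8+ T cells usually lose much of this set. The comparison asks how far the set differs between cells kept in mice without and with a microbiota.

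CACCC-type elements are the sites that KLF factors bind, and promoter sequence is shown for the KLF genes and for the receptor gene with the widest gap between recipients. RefSeq promoters (GRCm38.p6) were held for 6 of the 8 genes, and the 250 bases before the start site were searched on both strands. The letters CCACCC occurred in 4 of the 6 (Klf2, Klf3, S1pr4 and S1pr5), against 28.1% of all 32851 promoters. The FOXO core GTAAACA occurred in 0 of the 6, against 3.17% of all promoters. These matches describe letters in a window and not bound sites. Capitals mark CCACCC or its reverse complement GGGTGG, and the sequences run 5′ to 3′ on the strand of the gene. The Klf2 sequence is chr8:72318812-72319061 on the plus strand, that of Klf3 is chr5:64803271-64803520 on the plus strand, and that of S1pr5 is chr9:21248444-21248693 on the minus strand.
Klf2: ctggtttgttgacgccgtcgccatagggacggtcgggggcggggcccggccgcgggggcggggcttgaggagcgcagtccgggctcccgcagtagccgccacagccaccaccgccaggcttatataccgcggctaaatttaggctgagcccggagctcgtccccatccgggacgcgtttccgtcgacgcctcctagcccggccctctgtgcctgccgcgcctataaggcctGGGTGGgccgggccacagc
Klf3: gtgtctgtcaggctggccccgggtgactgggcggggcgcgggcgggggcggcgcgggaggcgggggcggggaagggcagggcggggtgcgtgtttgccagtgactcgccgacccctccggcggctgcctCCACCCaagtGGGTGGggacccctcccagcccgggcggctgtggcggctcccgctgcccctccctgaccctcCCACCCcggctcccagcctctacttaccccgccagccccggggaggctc
S1pr5: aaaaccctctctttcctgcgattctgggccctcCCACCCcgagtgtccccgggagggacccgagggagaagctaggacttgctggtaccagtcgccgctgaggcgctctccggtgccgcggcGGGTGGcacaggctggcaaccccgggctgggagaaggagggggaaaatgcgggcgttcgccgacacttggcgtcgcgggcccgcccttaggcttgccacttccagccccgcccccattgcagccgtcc
Klf2 held 1 match, from base -19 to base -14 before the RefSeq start site. Klf3 held 3 matches and S1pr5 held 2. In the GENCODE annotation, used for the gene positions below, Klf2 and Klf3 start further upstream, at 72319033 and 64803388. The matches of Klf2 and Klf3 therefore lie inside the genes by that annotation.

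Library totals were 14219354 and 14431533 reads in GF replicates 1 and 2, and 11544960 and 14026051 reads in SPF replicates 1 and 2. No label ties a replicate to a mouse or a pool of mice, so the p-values reflect spread among these libraries, which may be technical. Cells matched their CD8+ label, with Cd8a at 991 and 940 CPM (reads of a gene relative to the TMM-scaled library total) in GF and 932 and 790 CPM in SPF, while Cd4 stayed between 0 and 0.524 CPM in the 4 libraries. In bulk RNA, fewer cells of a type and less RNA per cell cannot be told apart. Of 15 B cell markers, 12 were in the table. They summed to 107 and 30.1 CPM in GF replicates 1 and 2, and to 87.4 and 26.8 CPM in SPF replicates 1 and 2, so they followed the replicate number. Ms4a1 (CD20) was at 0 in the libraries numbered 2. Among other lists, NK cell markers summed to 81.1 to 113 CPM over the 4 libraries, CD4 T cell markers to 191 to 290 CPM and neutrophil markers to 0.342 to 1.14 CPM. Without its largest gene, Klrb1c, the NK list summed to 47.7 to 74.4 CPM. Without Gata3, its largest gene, the CD4 list summed to 67.2 to 108 CPM. Red cell and platelet markers summed to 3.67 to 5.65 CPM. Macrophage, dendritic and endothelial lists were carried by genes that T cells also use (Ccr2, Itgax and Pecam1), and without these the lists summed to at most 10.9, 46.9 and 1.09 CPM.

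The genes fell into 3 patterns. In CPM, Foxo1 and S1pr4 were somewhat higher in both GF libraries than in both SPF libraries, and S1pr5 and Ccr7 were lower. S1pr1 had a narrow range over all 4 libraries. Foxo3, Klf3 and Klf2 differed mainly by replicate number. None of the 8 passed the edgeR quasi-likelihood test over all genes (Benjamini-Hochberg adjusted p = 0.855 at the lowest), in which 0 of 11271 genes passed (background 0.0%). At an unadjusted p under 0.05 there was 1 of the 8 genes (S1pr5), against 363 genes or 3.22% of all tested. S1pr5 was tested only because its SPF reads met the minimum, so its p depends on that choice. DESeq2 and the edgeR exact test each called 0 of the 8 and 0.0799% of all genes, and limma-voom called 0 of either. These fits did not use the replicate number. With that number as a block in the edgeR quasi-likelihood test, 2 of the 8 (Foxo3 and Ccr7) and 1206 of 11271 genes passed. No label says what libraries of the same number share. In 4 of the 8 genes the groups did not overlap, against 33.2% of all tested genes, which is no test of the set. With 2 libraries a group, the smallest two-sided p of an exact permutation test is 0.33.

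**Figure D1:**
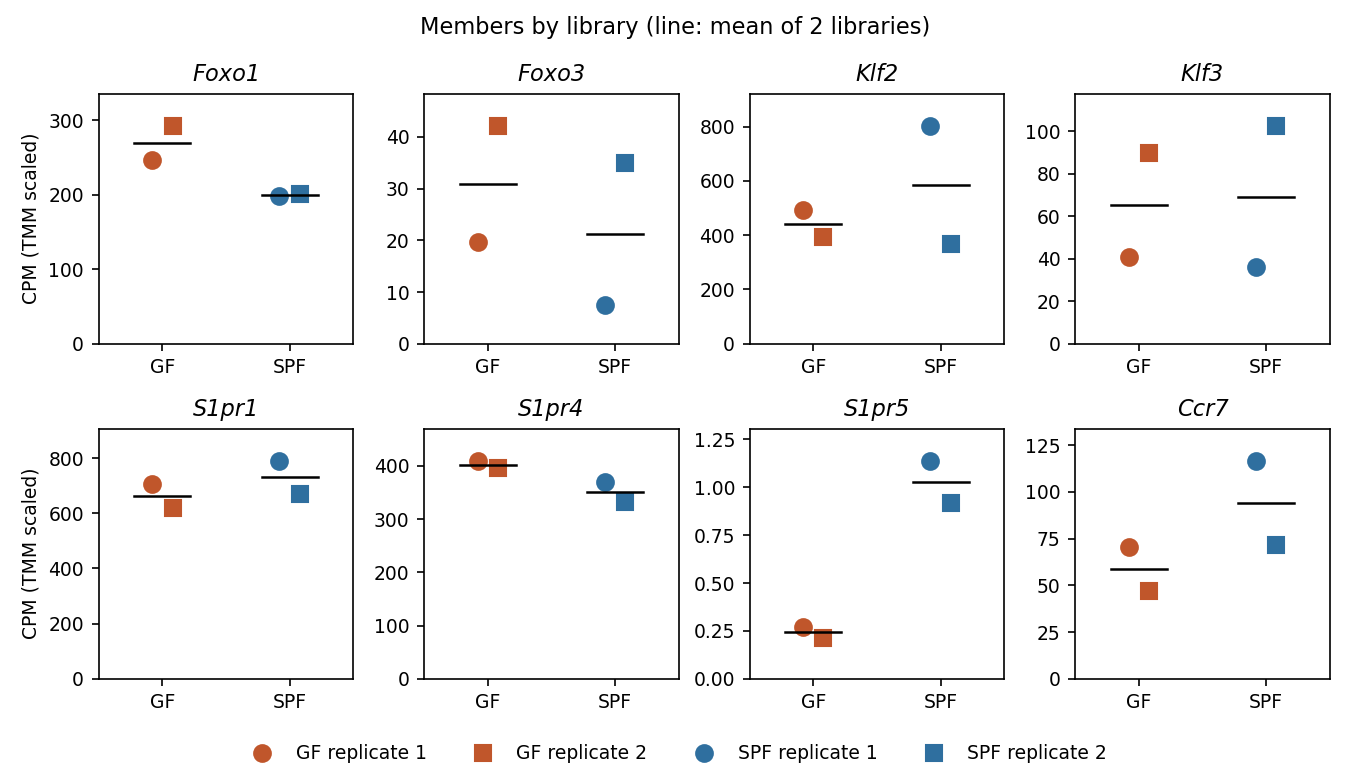
Level of each of the 8 genes in CPM (TMM scaled, linear axes from 0) in the 2 GF and 2 SPF libraries, with circles for replicate 1, squares for replicate 2 and a line at the mean. Foxo1, S1pr4, S1pr5 and Ccr7 show groups that do not overlap, while Foxo3 and Klf3 are low in the libraries numbered 1 and high in those numbered 2 in both recipients.

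Foxo1, the main FOXO factor of T cells, lies on chromosome 3 from 52268336 to 52353221 (GRCm38, plus strand), with a transcript of 8665 nt. It measured 247 and 292 CPM in GF replicates 1 and 2, against 198 and 201 CPM in SPF replicates 1 and 2. Both GF libraries thus lay above both SPF libraries, and the SPF pair was nearly equal. The log2 fold change was 0.43 (SE 0.21) and did not pass, and the SD was 32.0 CPM around a mean of 269 in GF and 2.23 CPM around a mean of 199 in SPF. GF lay above SPF by 0.32 between the libraries numbered 1 and by 0.54 between those numbered 2 on the log2 scale. With each library's trend of log2 CPM with exon length removed, the log2 fold change of Foxo1 was 0.21. GF minus SPF was then 0.013 between the libraries numbered 1 and 0.43 between those numbered 2, and SPF replicate 2 lay below SPF replicate 1 by -0.41. An antisense gene, Gm20402, covers 7.78% of the exonic bases of Foxo1, and unstranded reads there cannot be told apart.

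Foxo3, a FOXO factor known for inducing the death gene Bcl2l11, lies on chromosome 10 from 42181841 to 42276755 (minus strand). It had 287 and 588 reads in GF replicates 1 and 2, and 86 and 496 reads in SPF replicates 1 and 2. That is 19.6 and 42.1 CPM in GF, against 7.51 and 35.0 CPM in SPF. The groups overlapped, and SPF replicate 1 stood lowest by a wide margin. The ratio of the highest to the lowest library was 5.51, wider than for 97.5% of tested genes. Of the variation in log2 CPM, 73.7% followed the replicate number and 18% the recipient. The log2 fold change was 0.53 (SE 0.76). GF lay above SPF by 1.37 between the libraries numbered 1 and by 0.26 between those numbered 2. With the replicate number as a block the fold change was 0.76 (edgeR adjusted p = 0.035). With the length trend also removed it was 0.58 (edgeR adjusted p = 0.088). With 1 library left out, the recipients no longer share both numbers. The log2 fold change was then -0.18 without SPF replicate 1 and -0.12 without GF replicate 2. Without SPF replicate 2 it was 2.04 and passed by the edgeR quasi-likelihood test (adjusted p = 6.83e-05), a setting in which 11.8% of all genes passed, and the range of adjusted p over all alternatives reached 1.0. Foxo1 had 12.6 and 6.94 reads for each Foxo3 read in GF, and 26.3 and 5.73 in SPF.

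Klf2, the factor best known for keeping T cells quiescent and recirculating, lies on chromosome 8 from 72319033 to 72321656 (plus strand). It measured 492 and 392 CPM in GF replicates 1 and 2, against 801 and 368 CPM in SPF replicates 1 and 2. SPF replicate 1 stood far above the other 3 libraries, and the other SPF library was the lowest of all. The log2 fold change was -0.40 (SE 0.41) and did not pass. Without SPF replicate 1 it was 0.27. GF minus SPF was -0.70 between the libraries numbered 1 and 0.09 between those numbered 2. The replicate number took 67.7% of the variation and the recipient 12.1%. B cells also express Klf2, and B cell markers were higher in the libraries numbered 1. There they summed to 107 CPM in GF and 87.4 CPM in SPF, and the largest, Cd79b, measured 41.3 and 45.2 CPM. The part of B cells in the Klf2 reads was not tested.

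Klf3, a repressor that binds the same CACCC-type elements, lies on chromosome 5 from 64803388 to 64832901 (plus strand). It ran opposite to Klf2 by replicate number, at 41.0 and 90.0 CPM in GF replicates 1 and 2, and 36.1 and 102 CPM in SPF replicates 1 and 2. Each library numbered 2 was over 2-fold above the library numbered 1 of the same recipient. The replicate number took 98.1% of the variation. The log2 fold change between recipients was -0.08 (SE 0.60), with the sign turning to 0.86 without SPF replicate 2 and 0.38 without GF replicate 1. Reads of Klf2 for each read of Klf3 were 12.0 and 4.35 in GF, and 22.2 and 3.59 in SPF. The ratio therefore separated the replicate numbers and not the recipients. A gene on the opposite strand, Gm20033, covers 3.59% of the exonic bases of Klf3.

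**Figure D2:**
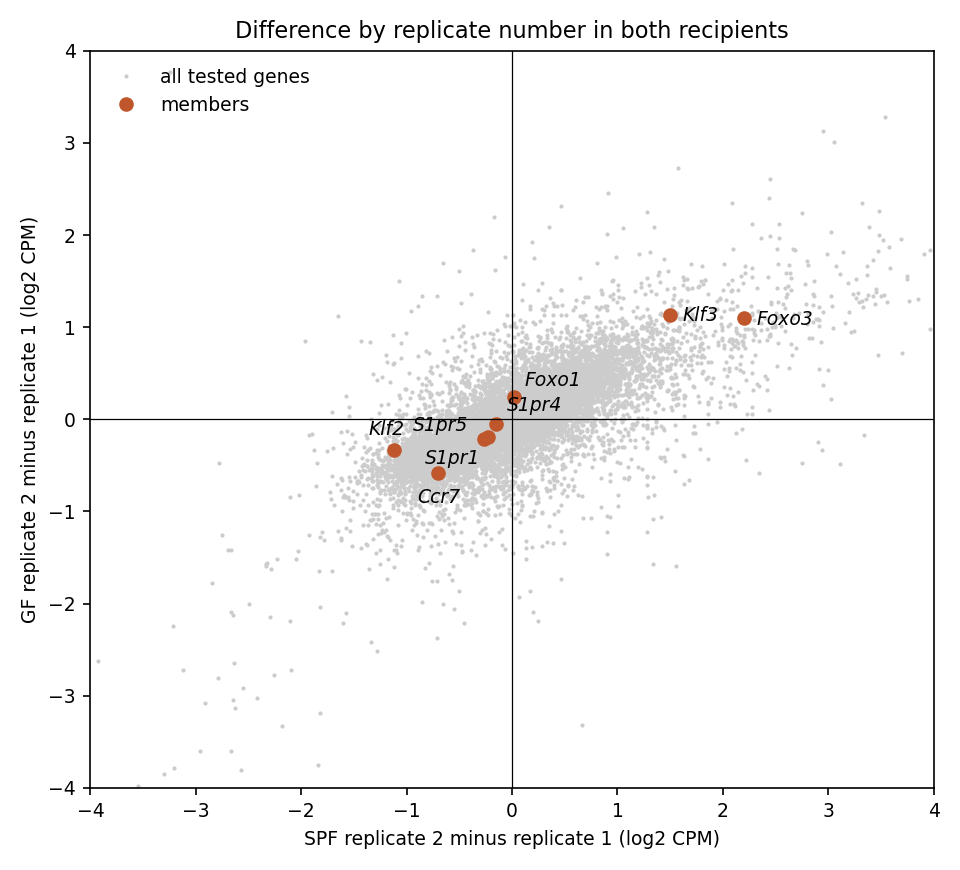
Replicate 2 minus replicate 1 in log2 CPM, in SPF (x axis) and in GF (y axis), for all tested genes (grey) and the 8 genes (orange); 19 genes lie outside the axes. Klf3 and Foxo3 lie far up in both recipients (1.5 and 2.20 in SPF), Klf2 and Ccr7 lie down in both, and the grey cloud itself runs along the diagonal.

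Levels in log2 CPM were higher in replicate 2 of both recipients for 3 of the 8 genes (Foxo1, Foxo3 and Klf3), against 38.8% of all tested genes, and lower there for the other 5, against 40.4%. Across all tested genes the replicate number outweighed the recipient for 62.5%, and this held for 4 of the 8 genes (Foxo3, Klf2, Klf3 and S1pr1). At least 2-fold higher levels in replicate 2 of both recipients were seen for 2.31% of tested genes, and Foxo3 and Klf3 were among them. Foxo3 was higher in replicate 2 by 1.10 in GF and 2.20 in SPF on the log2 scale, and by 0.91 and 1.85 with the length trend removed. Klf3 was higher by 1.13 in GF and 1.5 in SPF, and by 0.80 and 0.92 with the trend removed. Klf2 was lower in replicate 2 by -0.33 in GF and -1.12 in SPF, and by -0.08 and -0.71 with the trend removed. The part of transcript length in these differences was not tested beyond this offset.

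S1pr1, the receptor that draws lymphocytes out of lymphoid organs, lies on chromosome 3 from 115710433 to 115715072 (minus strand). It measured 704 and 618 CPM in GF replicates 1 and 2, against 788 and 671 CPM in SPF replicates 1 and 2. The groups overlapped, and the highest library exceeded the lowest only 1.27-fold, a narrower range than the median of 1.61-fold over tested genes. Between recipients S1pr1 had a log2 fold change of -0.14 (SE 0.23). Cd69, whose protein binds S1PR1 and takes it off the surface, measured 102 ± 0.699 CPM in GF and 117 ± 22.4 CPM in SPF, a log2 fold change of -0.19 (SE 0.22). Reads of S1pr1 for each read of Cd69 were 6.92 and 6.02 in GF, and 5.94 and 6.63 in SPF, so this ratio overlapped between recipients.

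S1pr4, a receptor of the same family found mainly on blood cells, lies on chromosome 10 from 81497747 to 81500132 (minus strand). It measured 409 and 395 CPM in GF replicates 1 and 2, against 369 and 333 CPM in SPF replicates 1 and 2. The GF libraries lay just above the SPF libraries. The log2 fold change of 0.20 (SE 0.21) did not pass, and no library left out turned its sign. The recipient took 75.7% of the small variation of S1pr4, whose range was smaller than that of all but 13.8% of tested genes. Reads of S1pr1 for each read of S1pr4 were 1.72 and 1.57 in GF, and 2.13 and 2.02 in SPF. This ratio did not overlap between recipients and was not tested. Among single tested genes, 33.2% did not overlap.

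S1pr5, known in mice for the exit of NK cells from marrow and lymph nodes and found on effector CD8+ T cells in blood, lies on chromosome 9 from 21242912 to 21248443 (minus strand). It had 4 and 3 reads in GF replicates 1 and 2, against 13 and 13 reads in SPF replicates 1 and 2. A gene on the opposite strand, Gm48303, covers 2.04% of the exonic bases of S1pr5, and unstranded reads there cannot be told apart. Both GF libraries were below both SPF libraries, but the gene was close to the detection limit throughout. In CPM with exact Poisson 95% intervals, GF replicate 1 had 0.273 (0.0744 to 0.700) and GF replicate 2 had 0.215 (0.0443 to 0.627). SPF replicate 1 had 1.14 (0.605 to 1.94) and SPF replicate 2 had 0.918 (0.489 to 1.57). A count of 0 would allow up to 3 reads, or 0.205 and 0.215 CPM in the GF and 0.262 and 0.212 CPM in the SPF libraries. Summed over libraries, 7 reads in GF and 26 in SPF gave a GF over SPF ratio of 0.241 (exact interval 0.0883 to 0.570). These intervals and limits cover counting error only, and reads copied in PCR are not independent molecules. The edgeR log2 fold change was -2.03 (SE 0.60), with an unadjusted p of 0.018 and an adjusted p of 0.855. It stayed between -2.20 and -1.87 when each library was left out in turn, and its adjusted p over all alternatives ran from 0.058 to 1.0. The recipient took 97.7% of the variation. S1pr5 was tested only because its SPF reads met the minimum, and the left-out fits kept the same set of genes. The ratio, the fits and this share all depend on that choice. NK cells also express S1pr5, and NK cell markers summed to 81.1 and 104 CPM in GF and to 113 and 109 CPM in SPF. Of the 6 NK markers tested, 5 did not overlap between recipients and were lower in GF, where 16.4% of all tested genes had this. The remaining tested NK marker had a higher mean in GF. Eomes stands in this list and in that of FOXO target genes. The NK marker Ncr1 was at 0.137 and 0.0716 CPM in GF, and at 0.262 and 0 CPM in SPF. Klra4 and Klra8 had no reads in any library. The part of NK cells in the S1pr5 reads was not tested.

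Counted together, the S1P receptor genes gave 16461 and 14421 reads in GF replicates 1 and 2, and 13492 and 14465 reads in SPF replicates 1 and 2. S1pr1 made up 62.6% and 59.9% of these reads in GF, and 66.9% and 65.7% in SPF. S1pr4 made up 36.3% and 38.3% in GF, and 31.3% and 32.6% in SPF. S1pr2, which couples to pathways that restrain migration, made up 1.02% and 1.78% in GF, and 1.67% in each SPF library. S1pr5 held 0.0243% and 0.0208% in GF, and 0.0964% and 0.0899% in SPF. S1pr3 had 1 read, in SPF replicate 1. These are shares of reads and not of molecules, since the transcripts differ in length.

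Ccr7, which guides T cells into lymph nodes along the ligands CCL19 and CCL21, lies on chromosome 11 from 99144196 to 99155077 (minus strand). It measured 70.6 and 46.9 CPM in GF replicates 1 and 2, against 116 and 71.4 CPM in SPF replicates 1 and 2. The groups did not overlap, but GF replicate 1 and SPF replicate 2 were almost equal. Its log2 fold change of -0.67 (SE 0.34) did not pass. GF lay below SPF in the libraries of either number, by -0.72 for number 1 and -0.60 for number 2. The recipient took 50.9% of the variation and the replicate number 48.7%. Left-out libraries moved the log2 fold change between -0.999 and -0.28. Without SPF replicate 2 it was -0.98 and passed (edgeR adjusted p = 0.016), a setting in which 11.8% of all genes passed, and its adjusted p over all alternatives ran from 0.012 to 1.0. B cells also express Ccr7. The B cell markers summed to 107 and 30.1 CPM in GF, and to 87.4 and 26.8 CPM in SPF. The largest, Cd79b, measured 41.3 and 26.4 CPM in GF, and 45.2 and 23.2 CPM in SPF. The part of B cells in the Ccr7 reads was not tested.

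**Figure D3:**
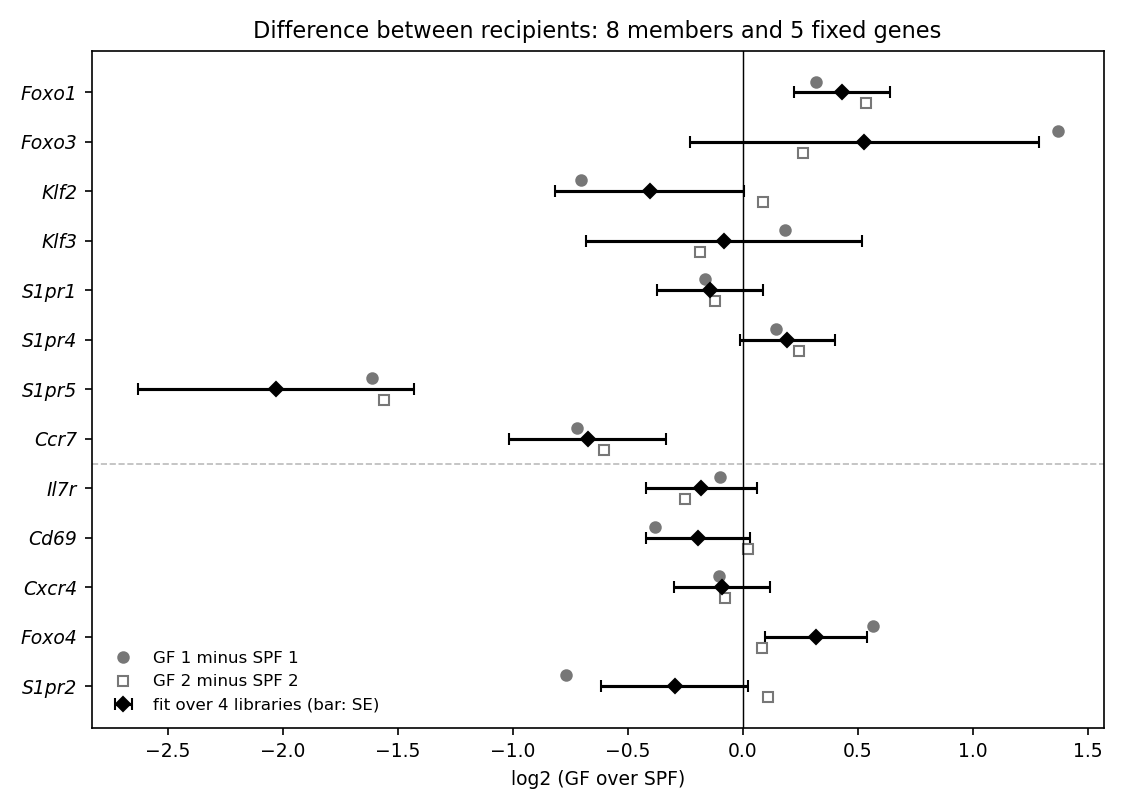
Log2 ratio of GF over SPF for the 8 genes and, under the dashed line, for 5 related genes fixed for naming; diamonds are the edgeR fit with its SE, filled circles the libraries numbered 1 and open squares those numbered 2. Ccr7, S1pr5 and S1pr1 lie below 0 and Foxo1, S1pr4 and Foxo3 above 0 for both numbers, while Klf2 and Klf3 change sign between numbers.

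Levels were set on a common scale as CPM per kb of the longest annotated transcript. On this scale Klf2 was at 199 to 434 over the 4 libraries, S1pr1 at 203 to 259 and S1pr4 at 140 to 171. Klf2 and S1pr1 overlapped, so their order is not resolved, while S1pr4 lay below S1pr1 in each library. Ccr7 at 23.7 to 58.8 and Foxo1 at 22.8 to 33.7 overlapped. Klf3 followed at 6.91 to 19.6, below both, and Foxo3 at 1.10 to 6.15. S1pr5 was lowest at 0.0859 to 0.454, below Foxo3 in every library. The longest Klf3 transcript is 5221 nt while its exons together span 11243 nt, so the per-kb level of Klf3 depends on which transcripts were made.

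**Figure D4:**
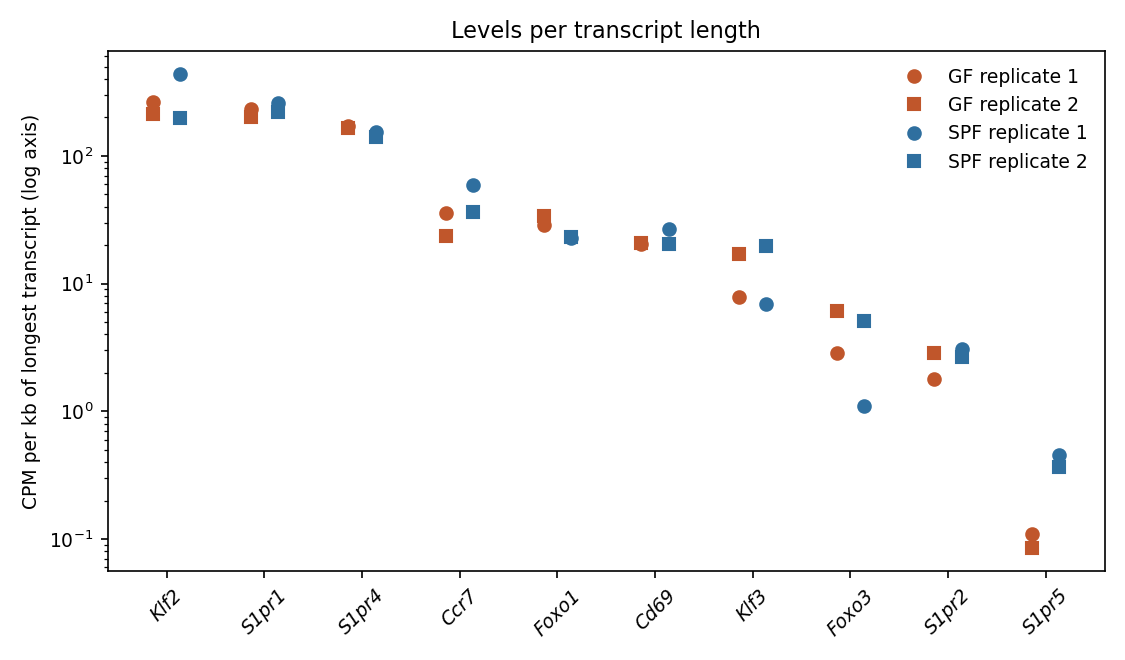
CPM per kb of longest transcript (log axis) for the 8 genes and for S1pr2 and Cd69, with GF libraries left of SPF libraries and genes in order of their mean. The levels run from 434 for Klf2 in SPF replicate 1 to 0.0859 for S1pr5 in GF replicate 2.

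The genes nearest to each in pattern over the 4 libraries were found by the root mean square difference of centred log2 CPM. With 4 libraries and 11271 genes close matches are many, and likeness in these data says nothing more. For Foxo3 the nearest was another forkhead gene, Foxn3, at 22.7 and 49.1 CPM in GF and 8.82 and 40.0 CPM in SPF (difference 0.0145), followed by Ttll4 (0.046). Klf3 was nearest to Prkdc, the catalytic subunit of DNA-dependent protein kinase (0.071), and to Myo19 (0.0898), and Klf2 to Ier3ip1 (0.0306) and Fdx1 (0.0326). Foxo1 was nearest to Ggcx (0.0153) and Apbb1ip (0.0223), S1pr1 to Ergic3 (0.013) and Twf2 (0.0137), and S1pr4 to Slc17a9 (0.0161) and Csgalnact2 (0.0171). Ccr7 was nearest to Bphl (0.0125) and Msl3l2 (0.0187). S1pr5 was nearest to Pald1, at 1.23 and 1.00 CPM in GF and 3.49 and 2.76 CPM in SPF (0.110), and to 2900060B14Rik (0.140).

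Among the 17 other FOXO and KLF genes, 11 were tested, and 10 of these had a higher mean in GF, where 49.7% of all tested genes did. Their median log2 fold change was 0.53, against -0.004 over all tested genes and -0.11 over the 8 genes described here. None passed the edgeR test, 3 had an unadjusted p under 0.05, and DESeq2 called 0. Klf11 measured 66.1 and 53.0 CPM in GF and 32.0 and 41.0 CPM in SPF (log2 fold change 0.71, SE 0.24). Klf10, a gene induced by TGF-β, measured 70.4 and 67.8 CPM in GF and 51.5 and 44.2 CPM in SPF (0.53, SE 0.20). Klf8 had 325 and 447 reads in GF and 142 and 255 reads in SPF (0.83, SE 0.32). In these 3 genes, and in Klf13 and Foxo4, both GF libraries lay above both SPF libraries, which makes 5 of 11, against 16.8% of all tested genes. The family members that follow were named after their values were seen. Klf13 measured 422 and 482 CPM in GF and 323 and 348 CPM in SPF, and the FOXO gene Foxo4 75.2 and 68.6 CPM in GF and 50.8 and 64.6 CPM in SPF. Klf4, Klf7 and Klf12 had log2 fold changes of 0.89, 1.11 and 0.97 with SE of 1.09, 0.91 and 0.69, and like Klf3 they were higher in both libraries numbered 2 than in the matching libraries numbered 1. Klf6 and Klf16 had 0.11 (SE 0.29) and 0.09 (SE 0.20). Klf9 was the member with a lower mean in GF, at -0.41 (SE 0.69). Leaving out single libraries moved the log2 fold change of Klf7 between 0.33 and 3.11 and that of Klf12 between 0.035 and 1.87. It turned the sign of Klf4, which ranged from -0.67 to 3.01, and of Klf6, Klf9 and Klf16. Without SPF replicate 2, a setting in which 11.8% of all genes passed, Klf4, Klf7, Klf8 and Klf12 passed the edgeR quasi-likelihood test (adjusted p = 0.0011, 0.0017, 0.039 and 0.010). GF exceeded SPF within both numbers for 8 of the 11, where 37.3% of all tested genes did so. Foxo6, Klf5, Klf14, Klf15 and Klf17 had 0 reads in every library, and Klf1 had 1 to 9 reads.

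Of 20 other recirculation receptors and adhesion genes, 17 were tested, 7 higher and 10 lower in mean in GF, with a median of -0.09. None passed the edgeR test, 1 had an unadjusted p under 0.05 and DESeq2 called 0. That gene was Gpr183, whose receptor places lymphocytes in lymphoid organs along oxysterol gradients. Gpr183 measured 56.4 and 51.0 CPM in GF, against 91.7 and 79.4 CPM in SPF (log2 fold change -0.67, SE 0.21, unadjusted p = 0.021). As for Ccr7, the groups did not overlap. Ltb, which encodes lymphotoxin β, measured 390 and 335 CPM in GF and 649 and 413 CPM in SPF. The gut-homing receptor gene Ccr9 rested on 14 and 16 reads in GF and 2 and 9 reads in SPF. Ccr9 met the minimum for testing through the GF libraries alone, so it was tested only because its reads were higher there. Il7r, whose receptor carries survival signals of IL-7, measured 1435 and 1537 CPM in GF, against 1538 and 1829 CPM in SPF, and the groups did not overlap, with a log2 fold change of -0.18 (SE 0.24). Cxcr4, the marrow-homing receptor gene, had -0.09 (SE 0.21). S1pr2 had -0.30 (SE 0.32). The sign of Cd69 turned without SPF replicate 1, those of Cxcr4 and S1pr2 turned without GF replicate 1, and that of Cxcr4 also turned with the length trend removed.

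Genes that act on FOXO proteins had 21 of 41 higher and 20 lower in mean in GF, a median of 0.05 (-0.10 with the length trend removed), and 0 with an unadjusted p under 0.05 (0 by the adjusted edgeR test and by DESeq2). Akt1, of the kinase family that phosphorylates FOXO, measured 255 and 226 CPM in GF and 181 and 177 CPM in SPF. Both GF libraries lay above both SPF libraries, as for Foxo1. Skp2, an F-box protein of a ubiquitin ligase, measured 4.30 and 3.94 CPM in GF and 8.82 and 5.30 CPM in SPF, and Ywhaq, a 14-3-3 protein that can hold phosphorylated FOXO, 278 and 285 CPM in GF and 443 and 309 CPM in SPF.

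Of 32 tested FOXO target genes 18 were higher and 14 lower in mean in GF, with a median of 0.05. None passed the edgeR test, 1 had an unadjusted p under 0.05 and DESeq2 called 0. The checkpoint receptor gene Ctla4 measured 91.9 and 97.8 CPM in GF and 58.7 and 70.6 CPM in SPF. The memory factor genes Bcl6 and Eomes went the other way, Bcl6 with 2.12 and 4.44 CPM in GF and 7.16 and 6.85 CPM in SPF, and Eomes with 12.6 and 9.30 CPM in GF and 16.9 and 16.2 CPM in SPF. Il7r stands in this list as well as in the list of recirculation genes.

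Of 16 tested genes of sphingosine phosphate supply and breakdown, 10 were higher and 6 lower in mean in GF, with a median of 0.04. None passed the edgeR test, 1 had an unadjusted p under 0.05 and DESeq2 called 0. That gene was Abca1, a lipid exporter better known for cholesterol, at 25.4 and 27.1 CPM in GF and 9.35 and 12.2 CPM in SPF (log2 fold change 1.28, SE 0.26, unadjusted p = 0.0040). Without SPF replicate 2 Abca1 had 1.49 and passed (edgeR adjusted p = 0.0062), and its adjusted p over all alternatives ran from 0.0010 to 1.0. The ceramidase genes Acer2 and Acer3, which free sphingosine from ceramide, measured 2.19 and 3.72 CPM in GF against 4.63 and 6.08 CPM in SPF, and 7.51 and 8.16 CPM in GF against 11.9 and 10.9 CPM in SPF.

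Genes of chemoattractant receptor signalling and migration had 29 of 42 higher and 13 lower in mean in GF, a median of 0.15, and 13 with both GF libraries above both SPF libraries, where 16.8% of all tested genes had this. None passed the edgeR test, 0 had an unadjusted p under 0.05 and DESeq2 called 0. Myo1g, a myosin of blood cells, measured 656 and 794 CPM in GF and 389 and 546 CPM in SPF. Rgs2, a regulator of G protein signalling, measured 59.7 and 105 CPM in GF and 41.2 and 57.4 CPM in SPF, and the Rap1 exchange factor gene Rapgef1 264 and 313 CPM in GF and 143 and 240 CPM in SPF. SPF replicate 1 was lowest in all 3 genes. Leaving out single libraries moved the log2 fold change of Rgs2 between 0.28 and 1.09 and that of Rapgef1 between 0.27 and 1.01.

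**Figure D5:**
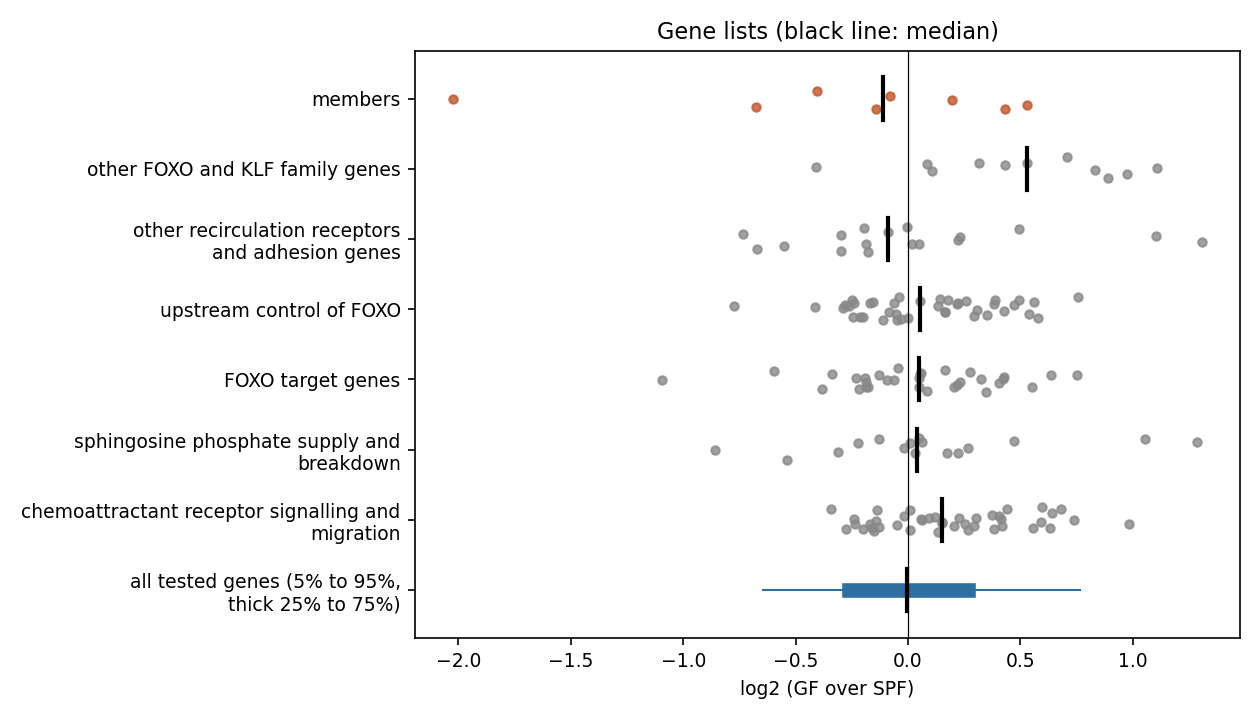
Log2 fold change of GF over SPF for each tested gene of the 7 lists, with a black line at each median; the blue bar gives the spread of all tested genes. The other FOXO and KLF genes have the highest median (0.53), while the 8 genes described here spread from -2.03 to 0.53.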

How the data were processed

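RNA of sorted splenic gBT-I cells was sequenced (TruSeq RNA kit from 1 µg of total RNA, a kit that does not mark strand). The values deposited by the authors are raw counts of reads for each gene. The submitters' processing notes name mm10 and CASAVA, TopHat, Picard, Subread, featureCounts and edgeR; which versions, settings or annotation they used was not given in the sources used here.

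Counts were tested with edgeR 4.0.16 (R 4.3.3): TMM, filterByExpr, and its quasi-likelihood test (GF over SPF, no covariate, two-sided), adjusted by Benjamini-Hochberg over 11271 genes at 0.05. SE was derived from the log2 fold change and its F statistic. Log2 CPM used a prior count of 2. Positions and lengths came from GENCODE M21 (GRCm38, the same assembly as mm10), and 99.3% of tested genes had a length. Length trends were loess fits (span 0.5) used as offsets. The shares of variation split the 4 values of log2 CPM into recipient, number and remainder. DESeq2 1.42.0 and limma 3.58.1 were alternatives, and figures used matplotlib 3.10.9.

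The genes and lists were chosen with earlier results of these data known. Named were the 8 genes, 5 fixed related genes (another is not reported here), up to 3 genes of smallest p per list, the most abundant gene of each list of other cells and the 2 nearest genes in pattern.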

Additional observations from a re-analysis of the deposited data

How the results depend on the processing

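Both groups carry numbers 1 and 2, which no label ties to an animal, day or batch, so the samples share only a number. Deviations from the group means correlated at r = 0.71 between same-numbered libraries, across genes, which are not independent replicates. With the replicate number as a block, 1206 of 11271 tested genes and 2 of the 8 passed the edgeR quasi-likelihood test. These were Foxo3 (log2 fold change 0.76, adjusted p = 0.035) and Ccr7 (-0.66, adjusted p = 0.012). With block and length offset together, 945 of 11271 tested genes and 1 of the 8 passed the same test, Ccr7 (-0.53, adjusted p = 0.032). Most of the 30 other named genes were chosen by smallest p or after their values were seen in these libraries. Counts among them are therefore no test. Of these 30, 13 passed with the block: Klf7, Klf8, Klf10, Klf11, Klf12, Gpr183, Ltb, Ctla4, Bcl6, Abca1, Myo1g, Rgs2 and Rapgef1. With block and offset 11 passed, Acer3 and the same genes without Klf7, Klf12 and Ltb. Without SPF replicate 2, 7 passed (Klf4, Klf7, Klf8, Klf12, Abca1, Rgs2 and Rapgef1). DESeq2 and the edgeR exact test called 9 genes each.

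Leaving out each library in turn gave 0 to 1329 genes and 0 to 2 of the 8 (Foxo3 and Ccr7, without SPF replicate 2). A lone library is then assumed to vary like the other group. Log2 fold changes ranged from -0.18 to 2.04 for Foxo3, -0.86 to 0.27 for Klf2, -0.76 to 0.86 for Klf3 and -0.999 to -0.28 for Ccr7. The signs of Foxo1, S1pr1, S1pr4, S1pr5 and Ccr7 held in all 16 alternatives that gave a value. A filter of 1 CPM in 2 libraries left S1pr5 out. Of the other genes, left-out libraries gave -0.38 to 0.018 for Cd69, -0.19 to 0.0058 for Cxcr4, -0.68 to 0.0045 for S1pr2, -0.67 to 3.01 for Klf4, -0.24 to 0.39 for Klf6, -1.13 to 0.48 for Klf9 and -0.0050 to 0.17 for Klf16. Cxcr4 had 0.054 with the length offset and 0.066 with block and offset. The causes were not tested.

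List medians ranged, over left-out libraries, from 0.33 to 0.52 for other FOXO and KLF genes, -0.19 to 0.018 for recirculation genes, -0.068 to 0.12 for genes acting on FOXO, -0.065 to 0.045 for FOXO targets, 0.017 to 0.073 for sphingosine phosphate genes and 0.12 to 0.24 for signalling genes. FOXO targets had 0.032 with the block, 0.0024 with the length offset and -0.0086 with block and offset, and sphingosine phosphate genes -0.0042 and -0.0052 with the offset and with both. Depth limits S1pr5 most, at 3 to 13 reads a library.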
